A study of Homo sapiens with 6 samples.

Results

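The genes described here carry the signal of interferon from the cell surface to the nucleus: the receptor chains IFNAR1, IFNAR2, IFNGR1 and IFNGR2, the kinases JAK1 and JAK2, and the transcription factors STAT2, IRF9 and IRF1. They were chosen by symbol as a family, and all 9 were found among the 25343 gene lines of the count table. Expression was measured by bulk RNA sequencing of A375, an established line of human melanoma cells, 3 libraries from cells given 50 nM panobinostat for 24 h and 3 from cells given vehicle, which was PBS in the matching volume. The cells of both groups were parental A375, with no genetic change named in the labels. Panobinostat blocks histone deacetylases, the enzymes that take acetyl groups off histones. Whether replicates were separate cultures is not stated, so the p-values cover the spread of these libraries alone, and that spread may be technical.

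Type I interferons bind IFNAR1 and IFNAR2, whose tails hold the kinases TYK2 and JAK1. Interferon gamma binds IFNGR1, which carries JAK1, and its signal needs the second chain IFNGR2, which brings JAK2. The kinases phosphorylate STAT proteins: STAT2 and IRF9 are parts of ISGF3, which binds the ISRE sequence of antiviral genes, and STAT dimers bind the GAS sequence, found among others at IRF1, itself an activator of antigen presentation genes.

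With panobinostat these genes moved in both directions, as did the genes tested as a whole. IFNGR2 fell to 0.245 of its vehicle level, whereas its partner IFNGR1 rose 1.40-fold and the transcription factor IRF1 rose 1.84-fold. The other 6 genes stood within 0.30 log2 units of vehicle, and IFNAR2 did not pass the test. Of the 9 genes tested 4 were called higher and 4 lower. Calls used the quasi-likelihood test of edgeR at a Benjamini-Hochberg adjusted p of 0.05 over 15499 genes. Under the 7 of 14 alternative settings in which IRF9 did not pass, 3 were higher. With upper quartile scaling or a filter of 5 CPM 2 were lower, and with the tool DESeq2 3 were lower. Of all genes tested 82.8% were called, 41.8% higher and 41.0% lower, so a call in this table is the usual outcome. The sizes of change were mostly small in this setting: the median absolute log2 fold change was 0.24 for the 9 genes and 0.60 for all genes tested, and 7 of the 9 lay under that median. A change of at least 2-fold was called for 1 of the 9 genes, against 30.7% of all genes tested. The groups' ranges did not overlap for 8 of the 9, against 83.4% of all genes tested.

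Totals per library were 32293283 to 38944399 counts, and 3 counts corresponded to 0.0774 to 0.0928 CPM, the counts scaled by the TMM-adjusted library size. Replicates differed by more than sampling noise in every pair. Of the melanoma markers, MITF, SOX10 and S100B were present in every library and fell with log2 changes of -0.69, -1.14 and -2.66, PMEL rose to 194 CPM with panobinostat, against 0.628 CPM in vehicle, DCT had 31 counts over the panobinostat libraries and 12 over the vehicle libraries, and MLANA and TYR had 0 counts throughout. Blood and immune markers summed to 3.87 to 4.25 CPM with panobinostat and 4.96 to 6.17 CPM in vehicle, with MS4A1 at 0 and PTPRC at no more than 3 counts in a library. They did not move together. LYZ fell to 3.02 CPM with panobinostat, against 5.17 CPM in vehicle, whereas CD14 rose to 0.574 CPM, against 0.158 CPM. CD3D had 25 counts over the panobinostat libraries and 1 over the vehicle libraries. Endothelial and fibroblast markers summed to 19.03 to 20.8 CPM with panobinostat and 3.59 to 4.58 CPM in vehicle, and 5 of 5 tested were called higher; their part in the results was not tested. Bulk libraries give shares of RNA, so fewer cells of a type and less RNA per cell cannot be told apart.

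**Figure D1:**
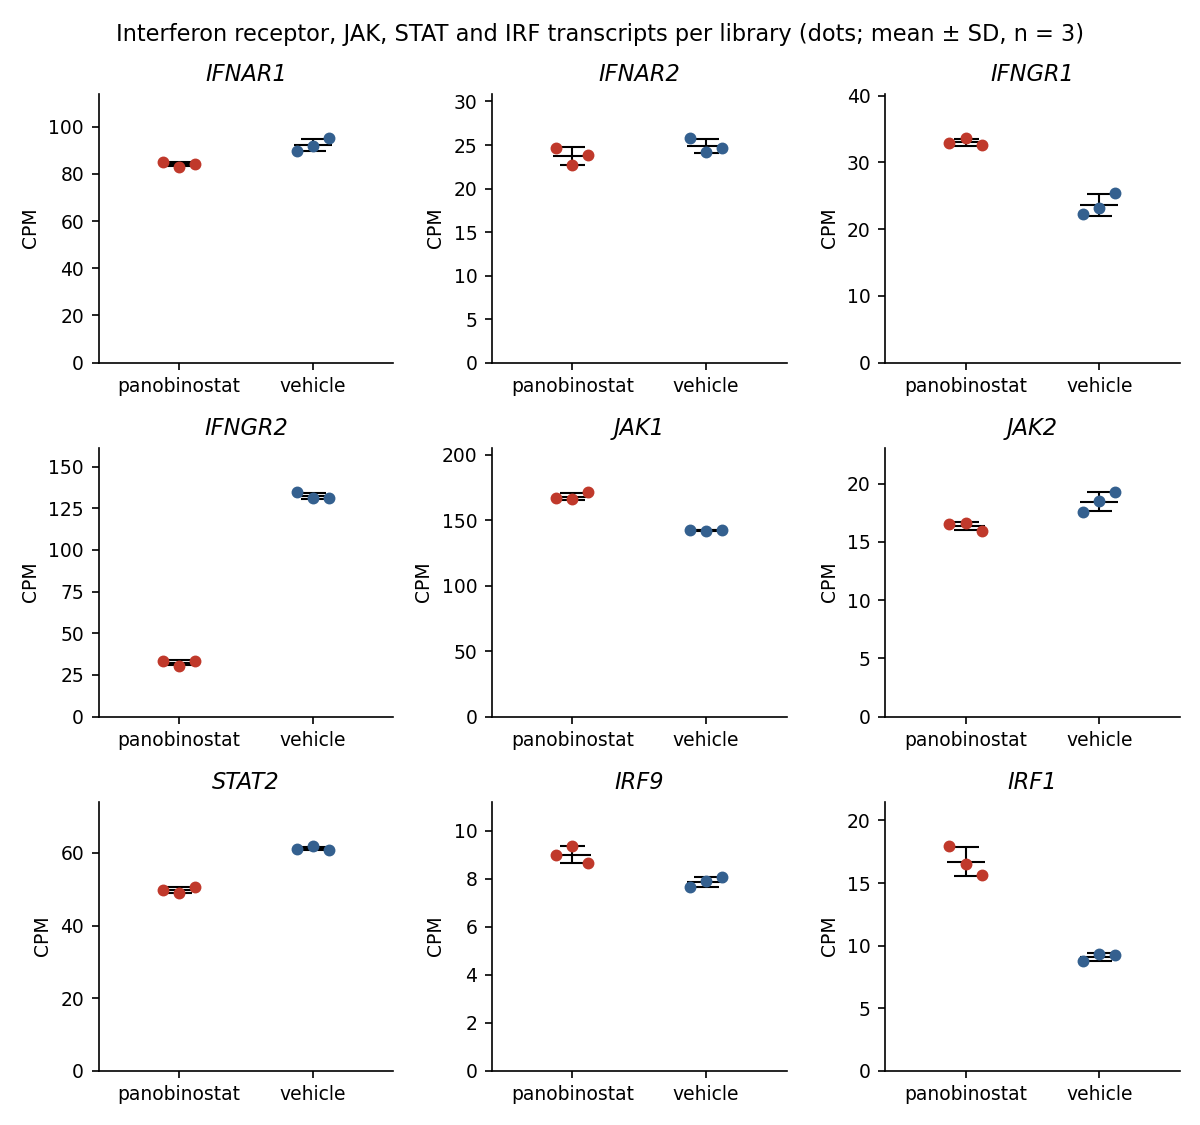
Level of each of the 9 genes in CPM, each panel from 0 on its own axis, with panobinostat (red) left of vehicle (blue); dots are libraries and black marks the mean and SD of n = 3. The IFNGR2 panel shows the widest gap, with 30.5 to 33.5 CPM under panobinostat and 131 to 135 CPM in vehicle, and the IFNAR2 panel shows overlapping groups.

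IRF1 is at once a part of the pathway and a known target of it, so the promoters of the family were examined for the sequences that STAT complexes bind. RefSeq promoter windows (build GRCh38.p14, 250 bases before to 50 after a gene's start) matched 8 of the 9 genes, with 15 windows. They were searched on both strands for the GAS letters TTCNNNGAA, which read the same on either strand, and for the ISRE letters TTTCNNTTTC. GAS letters were found in 2 of the 15 windows, those of the genes IRF1 and IRF9, and ISRE letters in 0. Of 34943 distinct windows of the same length, 7.66% held GAS letters and 3.57% ISRE letters. The stretches with the match are given because they hold the sequence that STAT dimers bind; capitals mark the GAS letters. The IRF1 stretch is chr5:132490859-132490927 on the minus strand, with the match 124 to 116 bases before the start. The IRF9 stretch is chr14:24161172-24161240 on the plus strand, with the match 63 to 55 bases before the start.
IRF1: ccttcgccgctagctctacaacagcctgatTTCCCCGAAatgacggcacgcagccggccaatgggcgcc
IRF9: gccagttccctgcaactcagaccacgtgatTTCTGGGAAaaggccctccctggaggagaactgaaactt
These are matches of letters and say nothing of binding in these cells. The levels of the 2 genes moved by different amounts, as given with the transcription factors.

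Of the receptors, the interferon gamma receptor changed most, and its chains moved in opposite directions. IFNGR2, the chain needed for signalling, measured 33.4, 30.5 and 33.5 CPM in panobinostat replicates 1 to 3 and 135, 131 and 131 CPM in vehicle replicates 1 to 3. Every panobinostat library lay far below every vehicle library. The log2 fold change was -2.03 ± 0.05 (SE; edgeR adjusted p = 2.57e-16), and 2.79% of all genes tested had a lower log2 fold change. A larger absolute change was found for 12.5% of all genes tested. IFNGR1, the chain that binds the ligand, measured 33.0, 33.6 and 32.6 CPM with panobinostat and 22.3, 23.2 and 25.5 CPM in vehicle. All panobinostat libraries were above all vehicle libraries, and the log2 fold change was 0.48 ± 0.06 (SE; edgeR adjusted p = 1.04e-06).

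The type I receptor chains hardly moved. IFNAR1 measured 84.9, 83.1 and 84.2 CPM with panobinostat and 89.7, 91.9 and 95.1 CPM in vehicle, and the groups did not overlap. Its log2 fold change was -0.13 ± 0.04 (SE; edgeR adjusted p = 0.00689), but the call was lost with upper quartile scaling (-0.014) and when only genes at 5 CPM or more were tested (-0.039). IFNAR2 measured 24.7, 22.7 and 23.8 CPM with panobinostat and 25.8, 24.1 and 24.7 CPM in vehicle. These ranges overlapped, and the log2 difference of -0.07 ± 0.06 (SE) did not pass (edgeR adjusted p = 0.298). That difference turned to 0.053 with upper quartile scaling and to 0.027 with the 5 CPM filter.

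Reads of the chains of one receptor can be set against each other within a library, which removes the scaling. IFNGR1 had 1.02 reads per read of IFNGR2 with panobinostat and 0.178 in vehicle (geometric means, n = 3 each). The log2 ratio was -0.02, 0.14 and -0.04 in the panobinostat libraries and -2.59, -2.50 and -2.36 in the vehicle libraries. The groups were far apart, with a difference of 2.51 in the log2 ratio. IFNAR1 over IFNAR2 showed no such shift: the log2 ratio was 1.82 ± 0.05 with panobinostat and 1.89 ± 0.08 in vehicle (SD, n = 3 each), and the libraries overlapped. The exact two-sided permutation test over libraries gave p = 0.1 for the IFNGR pair, the smallest value that 3 against 3 allows, and p = 0.3 for the IFNAR pair. Adjusted over the 5 pairs compared, these were 0.125 and 0.3, so no pair could pass 0.05.

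**Figure D2:**
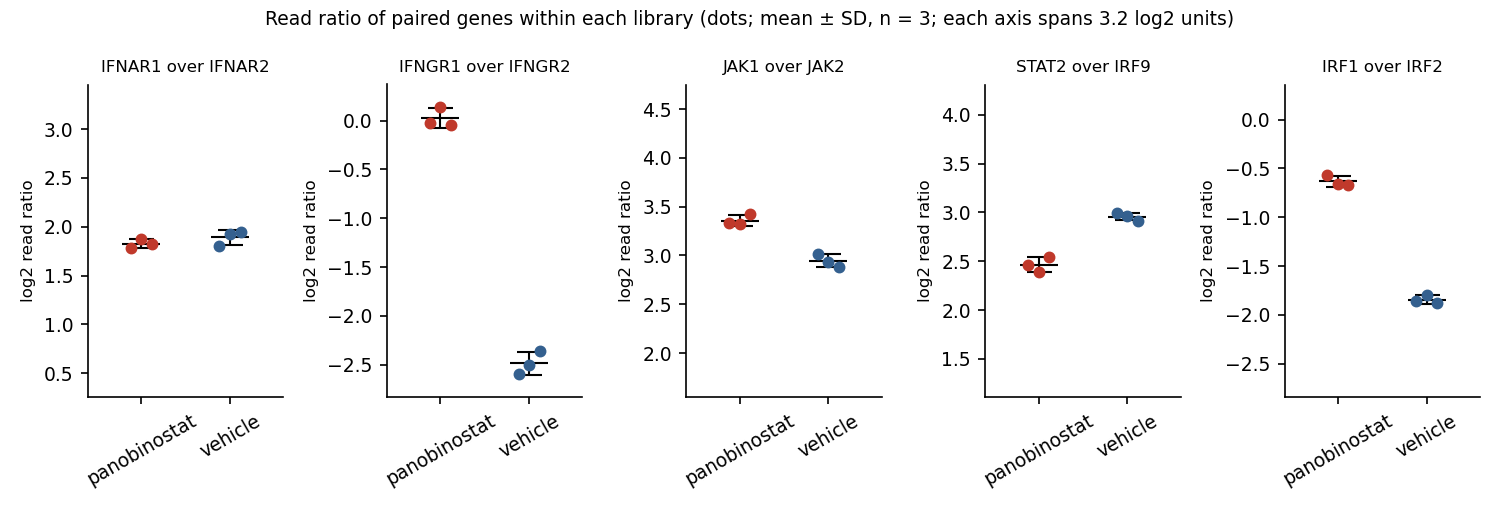
Log2 ratio of reads of 2 genes within each library (with a pseudocount of 0.5 counts), panobinostat (red) left of vehicle (blue); dots are libraries, black marks the mean and SD of n = 3, and all axes span the same length. IFNGR1 over IFNGR2 differed by 2.51 between the groups and IRF1 over IRF2 by 1.21, while IFNAR1 over IFNAR2 overlapped.

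Of the kinases, JAK1 rose a little and JAK2 was slightly lower. JAK1, which serves both receptors, measured 167, 166 and 171 CPM with panobinostat and 143, 142 and 142 CPM in vehicle. The libraries of each group lay close together, and the log2 fold change of 0.24 ± 0.04 (SE) passed (edgeR adjusted p = 1.01e-05). JAK2, the kinase of the IFNGR2 chain, measured 16.6, 16.6 and 15.9 CPM with panobinostat and 17.6, 18.5 and 19.3 CPM in vehicle. The groups did not overlap, and the log2 fold change was -0.17 ± 0.06 (SE; edgeR adjusted p = 0.0197). JAK2 did not pass with upper quartile scaling (-0.052), with the 5 CPM filter (-0.077), with DESeq2 (-0.15), with a replicate block (-0.17) or without panobinostat replicate 3 (-0.16). JAK1 over JAK2 had a log2 read ratio of 3.36 ± 0.06 with panobinostat and 2.95 ± 0.07 in vehicle (SD, n = 3 each; exact permutation p = 0.1, adjusted 0.125).

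The factors of ISGF3 moved apart by a small amount. STAT2, the STAT protein of type I and type III interferon signalling, measured 49.7, 49.1 and 50.5 CPM with panobinostat and 61.0, 61.8 and 60.9 CPM in vehicle. Each panobinostat library was below each vehicle library, and the log2 fold change was -0.30 ± 0.04 (SE; edgeR adjusted p = 7.85e-06). IRF9, the DNA-binding partner in ISGF3, measured 9.01, 9.35 and 8.66 CPM with panobinostat and 7.64, 7.91 and 8.06 CPM in vehicle. The groups were separate but near each other, with a log2 fold change of 0.20 ± 0.08 (SE; edgeR adjusted p = 0.028). The IRF9 call was lost under 7 of 14 alternatives: no filter on low counts (0.15), DESeq2 (0.21), a replicate block (0.19), and without panobinostat replicate 1 (0.19), panobinostat replicate 2 (0.17), vehicle replicate 1 (0.16) or vehicle replicate 2 (0.18). The log2 read ratio of STAT2 over IRF9 was 2.46 ± 0.08 with panobinostat and 2.96 ± 0.04 in vehicle (SD, n = 3 each; exact permutation p = 0.1, adjusted 0.125).

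IRF1, which activates genes of antigen presentation and cell death, showed the largest rise of the 9 genes. It measured 17.9, 16.5 and 15.7 CPM with panobinostat and 8.75, 9.30 and 9.23 CPM in vehicle. Every panobinostat library stood well above every vehicle library, and the log2 fold change was 0.88 ± 0.07 (SE; edgeR adjusted p = 6.16e-09). Of all genes tested 35.2% had a larger absolute change. IRF2, which competes with IRF1 for the same sites, fell to 25.9 ± 0.933 CPM with panobinostat, against 32.7 ± 1.18 CPM in vehicle (SD, n = 3 each). The log2 read ratio of IRF1 over IRF2 was -0.63 ± 0.05 with panobinostat and -1.85 ± 0.05 in vehicle (SD, n = 3 each; exact permutation p = 0.1, adjusted 0.125).

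**Figure D3:**
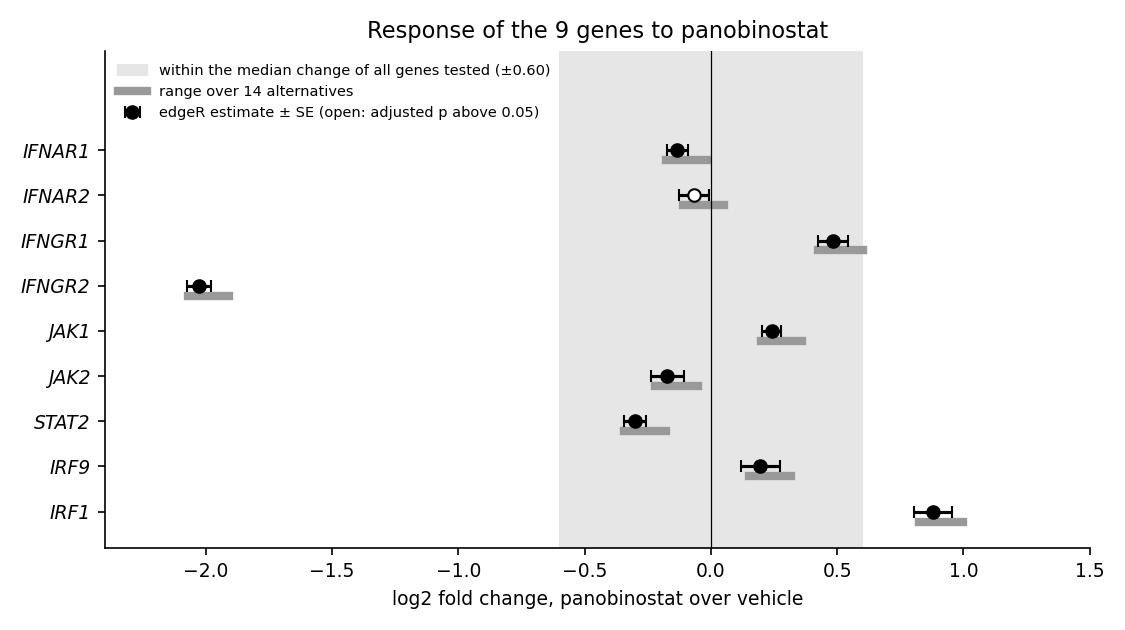
Log2 fold change of panobinostat over vehicle for the 9 genes, as edgeR estimates ± SE with the range over 14 alternatives of scaling, filter, tool, block and left-out library beneath each; the shaded band is the median absolute change of all genes tested, 0.60. IFNGR2 and IRF1 lie outside the band, and the range of IFNAR2 crosses 0.

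Per length of transcript IFNGR2 stood behind JAK1 and STAT2 with panobinostat and ahead of every other gene of the family in vehicle. Levels were divided by the merged exon length in GENCODE 29, which may differ from the annotation that was counted, so they are approximate. With panobinostat JAK1 stood first at 33.3 CPM per kb, followed by STAT2 at 14.7, IFNGR2 at 14.2, IFNAR1 at 13.7 and IFNGR1 at 11.2 CPM per kb. IFNAR2 at 5.45, IRF9 at 4.58, IRF1 at 4.41 and JAK2 at 3.10 CPM per kb were the lower ones. Of neighbours in this order STAT2 and IFNGR2, IFNGR2 and IFNAR1, and IRF9 and IRF1 overlapped between libraries. In vehicle IFNGR2 stood first at 58.1 CPM per kb, ahead of JAK1 at 28.2, STAT2 at 18.1, IFNAR1 at 15.0 and IFNGR1 at 8.03 CPM per kb. IFNAR2 at 5.71, IRF9 at 4.01, JAK2 at 3.49 and IRF1 at 2.40 CPM per kb followed, and no neighbours overlapped.

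IFNGR2, IFNAR1 and IFNAR2 lie side by side on chromosome 21, with IL10RB, the shared chain of the interleukin-10 and interferon lambda receptors, between the IFNAR genes. IL10RB measured 30.7 ± 2.29 CPM with panobinostat and 30.1 ± 1.203 CPM in vehicle (SD, n = 3 each), a log2 difference of 0.03 that did not pass and that changed sign under some alternatives. Next to IFNGR2 on the far side, TMEM50B fell to 17.3 ± 0.304 CPM with panobinostat, against 27.0 ± 2.46 CPM in vehicle, and DNAJC28 rose 2.91-fold. GART, an enzyme of purine synthesis, fell with a log2 change of -0.87, SON, a splicing factor, with -0.23, and DONSON, a replication protein, with -1.09. Before IFNAR2, the transcription factor genes OLIG2 and OLIG1 fell with log2 changes of -1.23 and -2.63, the OLIG1 level being 0.133 CPM with panobinostat and 0.839 CPM in vehicle. The 3 consecutive genes IFNAR2, IL10RB and IFNAR1 thus measured within 0.14 log2 units of vehicle, next to genes that moved more. IFNGR2 shares 852 exon bases with the span of TMEM50B on the opposite strand, and no source used here gives the strand setting, so reads of the pair cannot be told apart there; the vehicle level of TMEM50B was below that of IFNGR2. The strand setting also leaves unresolved 3233 exon bases of IRF1 inside C5orf56, on the opposite strand, which had 12 counts over the panobinostat libraries and 32 over the vehicle libraries, and 1614 exon bases of JAK2 inside INSL6, likewise opposite, which had 0 counts in every library. JAK1 shares 4 exon bases with RAVER2 on the opposite strand.

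**Figure D4:**
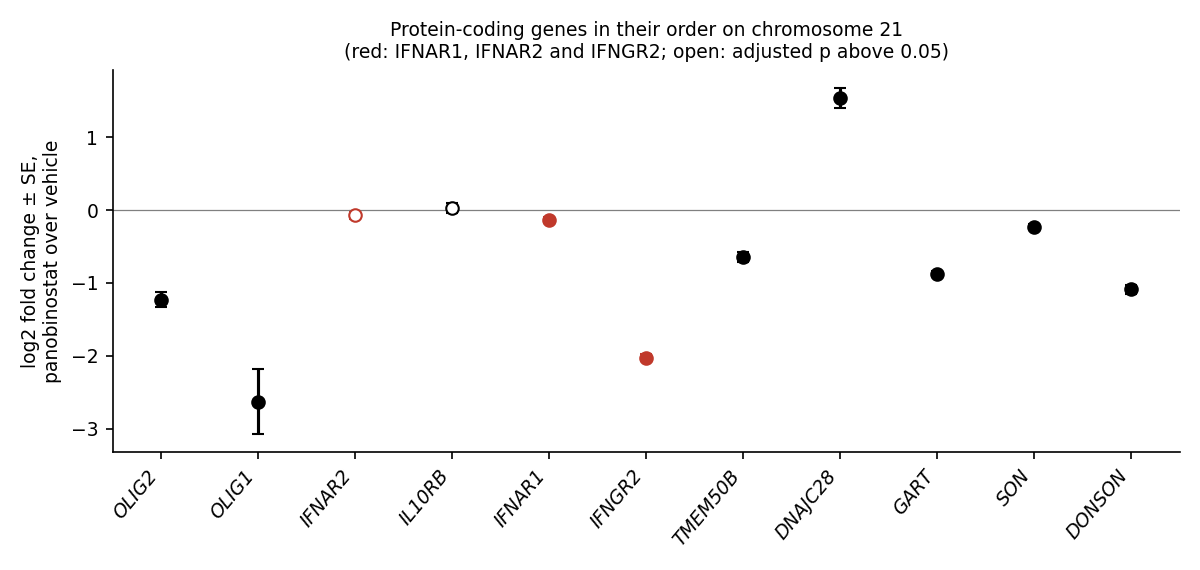
Log2 fold change ± SE of panobinostat over vehicle for the counted protein-coding genes around the receptor cluster, in their order along chromosome 21 (equal spacing, not to distance); red marks IFNAR1, IFNAR2 and IFNGR2, and open symbols did not pass. IFNAR2, IL10RB and IFNAR1 lie near 0, and IFNGR2 lies at -2.03.

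Other genes of the pathway were counted from lists drawn up from general knowledge, over the same fit, and each count stands against the 41.8% of all genes called higher and 41.0% called lower. IFNLR1, the specific chain of the interferon lambda receptor, rose 2.38-fold to 10.1 ± 0.296 CPM, against 4.26 ± 0.229 CPM in vehicle (SD, n = 3 each). Of 7 other JAK and STAT genes 3 rose and 4 fell, with a median log2 fold change of -0.39 against 0.01 for all genes tested, and 1 rose when only genes at 5 CPM or more were tested. STAT3, the factor of interleukin-6 signalling, rose 1.79-fold to 348 ± 3.44 CPM with panobinostat, against 194 ± 5.32 CPM in vehicle. JAK3 rose 2.06-fold and STAT4 rose to 0.795 CPM, against 0.116 CPM. TYK2, the kinase on IFNAR1, fell to 57.3 ± 0.171 CPM with panobinostat, against 75.04 ± 5.45 CPM in vehicle. STAT5A, STAT5B and STAT6, which serve cytokines and growth factors, fell with log2 changes of -2.46, -0.55 and -1.82.

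Of the other IRF factors and IRF2-binding cofactors 7 of 9 were tested, of which 3 rose and 4 fell, or 2 fell with the 5 CPM filter, with a median log2 fold change of -0.34 against 0.01 for all genes tested. IRF3, which switches on interferon genes after viral sensing, rose 1.30-fold, whereas IRF7, which amplifies that response, and IRF5, a factor of innate immunity, fell with log2 changes of -0.79 and -1.26. IRF2BP2 rose 2.41-fold and IRF2BPL 1.27-fold, and IRF2BP1 fell with a log2 change of -0.47. IRF8 had 19 counts in all with panobinostat and 0 in vehicle, and IRF4 12 and 5, too few to test.

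Of 15 tested negative regulators of the pathway 5 rose and 7 fell, against 41.8% higher and 41.0% lower among all genes, with a median log2 fold change of -0.13 against 0.01 for all genes. SOCS5 rose 2.35-fold, the phosphatase PTPN1 1.78-fold, SOCS3 1.69-fold, and SOCS4 1.17-fold. Without vehicle replicate 1 or vehicle replicate 2 the list held 3 rises in place of 5, and SOCS4 (0.16 and 0.19) was among the calls lost. SOCS2, PIAS3, the phosphatase PTPN2 and USP18, which blocks IFNAR2, fell with log2 changes of -1.50, -0.67, -0.66 and -1.09. SOCS1 stayed at no more than 12 counts in a library and was not tested.

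Genes downstream of the pathway were mostly lower. Of 29 tested targets of ISGF3, 17 fell and 9 rose (5 with the 5 CPM filter), where 41.0% of all genes were called lower and 41.8% higher, with a median log2 fold change of -0.80 against 0.01 for all genes tested. OAS3, an antiviral synthetase, fell to 22.2 ± 1.77 CPM with panobinostat, against 74.9 ± 3.03 CPM in vehicle, IFIT3 to 1.70 ± 0.0651 CPM, against 13.0 ± 0.935 CPM, MX2 to 31.8 ± 1.63 CPM, against 73.6 ± 3.43 CPM, and SAMD9L to 5.39 ± 0.440 CPM, against 16.6 ± 0.132 CPM. Rises included IFI6, 4.70-fold, IFIT1, 1.83-fold, EPSTI1, with 109 counts over the panobinostat libraries and 11 over the vehicle libraries, and OASL, which reached 5.28 ± 0.471 CPM with panobinostat, against 0.0700 ± 0.0525 CPM in vehicle from 8 counts; its log2 fold change was 6.20, or 6.99 without vehicle replicate 1. Of 14 tested targets of interferon gamma and IRF1, 11 fell and 2 rose (1 with the 5 CPM filter), with a median of -1.58. The GTPases GBP1 and GBP2 fell to 1.03 ± 0.132 and 14.2 ± 0.686 CPM with panobinostat, against 11.8 ± 1.06 and 64.5 ± 3.83 CPM in vehicle. WARS, a tRNA synthetase, and PSMB8, an immunoproteasome subunit, fell with log2 changes of -1.27 and -2.07, while ICAM1, an adhesion molecule, rose 2.13-fold and SERPING1, an inhibitor of complement, reached 0.915 CPM against 0.105 CPM. The vehicle level of SERPING1 rests on 8, 2 and 2 counts, and its log2 fold change was 3.09, or 4.05 without vehicle replicate 1.

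**Figure D5:**
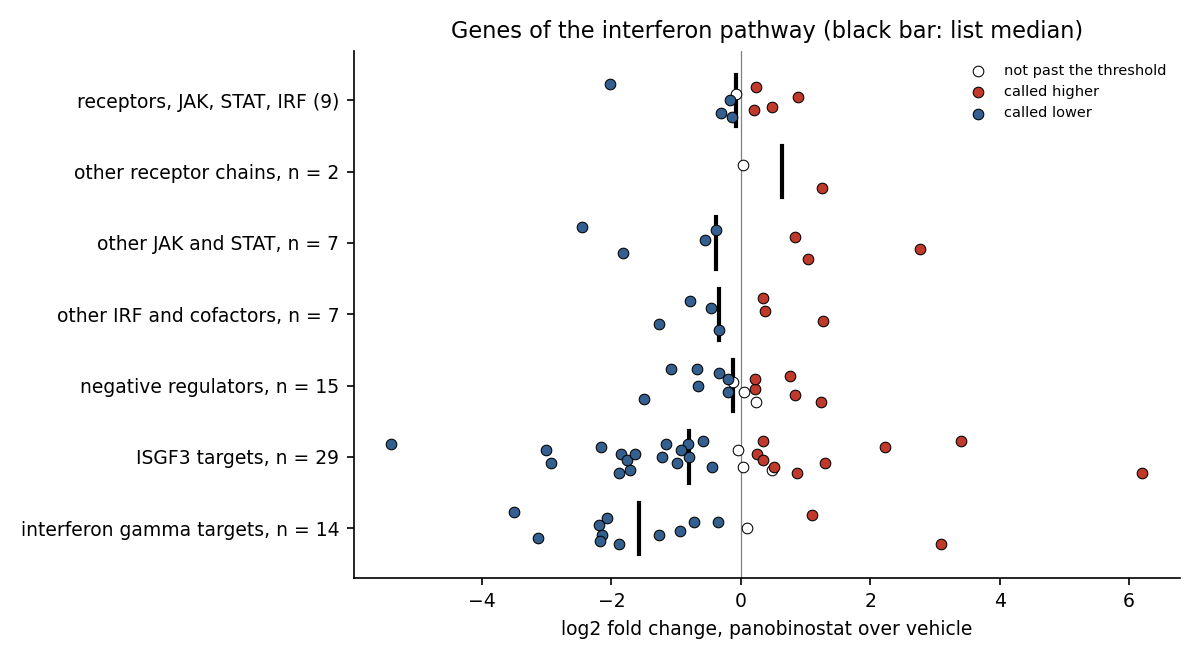
Log2 fold change of panobinostat over vehicle for every tested gene of each list, 1 dot a gene, red where called higher, blue where called lower and open where the threshold was not passed; black bars are list medians. The ISGF3 targets centre on -0.80 and the interferon gamma targets on -1.58, and the 9 genes of receptors, JAK, STAT and IRF centre on -0.07.

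Interferon genes themselves were nearly silent. Of 21 such genes with a line of counts, 18 had 0 counts in every library, among them IFNB1 and IFNG. The floor set for counting error alone was 3 counts, or 0.0774 to 0.0928 CPM in a library. IFNA5 had 2 counts in 1 library of each group, and IFNK had 1 count in 1 panobinostat library. IFNE, the epithelial type I interferon that uses the IFNAR chains, measured 118, 134 and 88 counts with panobinostat and 14, 21 and 16 counts in vehicle. It rose 7.07-fold to 3.22 ± 0.472 CPM, against 0.462 ± 0.130 CPM in vehicle (SD, n = 3 each; edgeR adjusted p = 8.80e-10). All 1475 exon bases of IFNE lie inside MIR31HG, a noncoding gene on the same strand in GENCODE 29 that rose to 11.5 CPM, against 3.49 CPM, so its count is uncertain.

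Genes with the profile nearest to that of IFNGR2 and of IFNAR2, the genes of the family with the largest and the smallest change, were found by the root mean square distance of centred log2 CPM over the 6 libraries. For IFNGR2 these were AURKB, KIF20A and MARVELD1, at distances of 0.023, 0.030 and 0.035. For IFNAR2 they were PHLPP1, SERPINA5 and NDUFA11, at 0.021, 0.023 and 0.025. With 2 groups of libraries such a likeness is mainly that of the fold change.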

How the data were processed

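The authors' deposited table holds raw counts per gene symbol, whole numbers with no normalization; STAR is named in the name of that table, and its version is not given, nor are the genome build, annotation and strand setting, in the sources used here. Columns were matched to samples by title and groups by the labelled dose. The table had 25435 lines, of which 92 spike-in lines with 0 counts were left out; 28 date-like symbols stayed in the fit unnamed. Genes passing filterByExpr were tested with the robust quasi-likelihood F test of edgeR, on group alone after TMM scaling, with R 4.3.3, edgeR 4.0.16, limma 3.58.1 and DESeq2 1.42.0; plots used Python 3.11.15 and matplotlib 3.10.9. CPM use TMM-scaled libraries. The SE of an edgeR log2 fold change was derived from the test, as the absolute log2 fold change over the square root of F. Read ratios were compared with exact permutation tests. The steps were tested on simulated counts in which most genes did not change. In these data 82.8% of genes were called, so that test does not cover scaling under so wide a response. Named were all 9 members, all other receptor, JAK, STAT and IRF genes listed, interferon genes with counts, up to 4 called genes per direction of the other lists by adjusted p, neighbours of the chromosome 21 receptors, and the nearest profiles. SOCS1, IFNB1, IFNG, MIR31HG, C5orf56, INSL6, RAVER2 and the markers lie outside that rule and were chosen after their values were seen. Overlapping genes without a line of counts also lie outside it. The members and lists were chosen with earlier results of these data known, so no count over a list is independent evidence. Some genes of the family are not reported here and were left out of the list counts. Same-numbered libraries did not deviate together (correlations of -0.48 to -0.21), so numbers were not taken as pairs. Differently numbered libraries of the 2 groups had correlations from -0.26 to 0.41, and the source of these was not tested. Floors cover counting error only, and the SE and SD given cover the spread of these libraries.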

Additional observations from a re-analysis of the deposited data

How the results depend on the processing

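Alternatives were other scalings (RLE, upper quartile, library size), other filters (none, or 5 CPM in 3 libraries), other tools (limma-voom, DESeq2), a replicate block, and leaving out each library. IFNGR1, IFNGR2, JAK1, STAT2 and IRF1 kept their direction and passed under all 14. All 14 set levels from the libraries' own counts, and the spike-in lines held 0 counts. A shift in total RNA per cell would therefore not be seen, and these directions are relative to the other genes. Upper quartile scaling moved the median log2 fold change of all genes to 0.13, against 0.01 as reported, so small changes depend on the scaling. In that scaling and under the 5 CPM filter, given in this order, 2 and 2 members were lower in place of 4, and their median was 0.053 and 0.027 in place of -0.07. In the same order IFNAR1 measured -0.014 and -0.039 and did not pass, IFNAR2 measured 0.053 and 0.027, and JAK2 measured -0.052 and -0.077 and did not pass. JAK2 also failed with DESeq2 (-0.15), and IRF9 with DESeq2 (0.21) and with no filter (0.15); the causes were not tested. With a replicate block, on numbers that do not pair the libraries, JAK2 (-0.17) and IRF9 (0.19) did not pass. Over left-out libraries JAK2 ranged from -0.22 to -0.16, IRF9 from 0.16 to 0.22 and IL10RB from -0.014 to 0.088. With upper quartile scaling 2 other receptor chains were higher in place of 1, since IL10RB passed (0.15); IL10RB was -0.015 with no filter. The 5 CPM filter left fewer genes tested: 1 other JAK or STAT gene, 5 ISGF3 targets and 1 interferon gamma target were higher and 2 other IRF genes lower, in place of 3, 9, 2 and 4. Negative regulators called higher ranged from 3 to 5 over left-out libraries. Of all results set against an alternative, 904 kept direction and side of the threshold, or for values and counts stayed within the tolerance. Of the rest, 16 lost a call, 11 moved beyond the tolerance, 5 reversed direction and 1 gained a call. The tolerance for counts was wide: 3 members called higher in place of 4 was taken as kept. The read ratios do not depend on scaling. Depth limits the low genes: OASL and SERPING1 rest on 8 and 12 vehicle counts over 3 libraries, and without vehicle replicate 1 their log2 fold changes were 6.99 and 4.05, against 6.20 and 3.09.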
